A study of Mus musculus with 20 samples.

Results

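The count table of this mouse heart study held 63318 genes, and 1440 of them were unannotated genes whose identifier names the annotated gene they lie antisense to. They were taken by that identifier alone, without use of any measured value. In the text each is written as AS- followed by the symbol of the annotated gene, which is called its partner, so that AS-Myh7 is the unannotated gene antisense to Myh7. The identifier named 1 partner for 1403 members and 2 partners for 37, and the other unannotated genes of the table, 8236 in number, carried a number only. Poly(A) RNA from heart tissue was sequenced as short Illumina reads in 16 libraries, 4 in each of 4 groups. The MI group was sampled 72 h after surgery for myocardial infarction, from the core of the infarct and its surroundings, and the MISham group from the same regions of sham-operated hearts. The IR group had 40 min of LCA, which the labels do not spell out, and 72 h of reperfusion, and its tissue and that of the IRSham group came from the core region alone. The labels give no strain, sex or age, and do not state whether the 4 libraries of a group came from different animals, and the tests rest on library-to-library spread that may be technical. A further 4 long-read Nanopore libraries, 1 for each group, served the submitters in finding the unannotated genes and have no column in the tables.

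An antisense transcript is made from the DNA strand opposite to that of a gene and runs through it in the other direction. Many mammalian genes have one, most are long noncoding RNAs present at a lower level than the gene across from them, and the heart has a well-known case in Mhrt, which is transcribed antisense to the myosin heavy chain gene Myh7. Antisense transcripts can start at a promoter of their own, at the back of the partner's promoter, or upstream or downstream within a neighbouring gene of the same strand. How the read counting treated strand is not stated, and without strand, reads from a gene and from its antisense partner cannot be told apart where they overlap. The counts below are therefore those assigned to the member's row, and the level of a member and that of its partner are not independent measurements.

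Sequences of the members themselves were not used here. The promoter sequences of 1023 partners were matched by symbol in RefSeq (GRCm38.p6), each reaching from 250 bases before the start of the gene to 50 after it. The 4 partners on which the results below turn are shown, Cep85 and Myh7 for the most abundant members, Lgals3 for the member with the largest rise, and Cpn2 for the one with the largest fall after MI. Capitals mark the TATA box (TATAAA), the CCAAT box (CCAAT) and the GC box (GGGCGG) on either strand, and no marked motif overlaps another.
Cep85, chr4:134187036-134187335, minus strand: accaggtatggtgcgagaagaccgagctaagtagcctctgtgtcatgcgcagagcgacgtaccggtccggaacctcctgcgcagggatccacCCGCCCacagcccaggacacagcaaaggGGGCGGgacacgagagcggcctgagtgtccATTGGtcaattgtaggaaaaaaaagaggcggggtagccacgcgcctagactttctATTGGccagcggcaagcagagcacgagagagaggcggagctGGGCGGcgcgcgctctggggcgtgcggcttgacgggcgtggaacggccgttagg
Myh7, chr14:54994577-54994876, minus strand: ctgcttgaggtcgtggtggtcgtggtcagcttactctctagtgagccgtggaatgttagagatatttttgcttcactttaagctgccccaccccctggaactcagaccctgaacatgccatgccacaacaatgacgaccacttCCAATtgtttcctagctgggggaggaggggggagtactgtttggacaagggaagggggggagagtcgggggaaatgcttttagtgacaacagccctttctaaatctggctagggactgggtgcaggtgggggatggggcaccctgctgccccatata
Lgals3, chr14:47373610-47373909, plus strand: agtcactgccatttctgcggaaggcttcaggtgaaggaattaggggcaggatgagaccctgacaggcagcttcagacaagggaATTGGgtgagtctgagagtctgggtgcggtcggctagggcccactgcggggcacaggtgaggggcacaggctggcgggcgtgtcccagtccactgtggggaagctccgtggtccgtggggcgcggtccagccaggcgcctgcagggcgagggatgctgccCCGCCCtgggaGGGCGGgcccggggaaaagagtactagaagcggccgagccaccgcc
Cpn2, chr16:30267483-30267782, minus strand: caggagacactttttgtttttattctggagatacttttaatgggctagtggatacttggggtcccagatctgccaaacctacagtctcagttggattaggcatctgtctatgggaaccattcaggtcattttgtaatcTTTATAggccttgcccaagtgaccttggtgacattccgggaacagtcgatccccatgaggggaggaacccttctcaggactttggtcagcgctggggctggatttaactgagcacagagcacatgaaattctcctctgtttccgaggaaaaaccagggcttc
The Cep85 window held 28 CpG dinucleotides, 3 GC boxes and 2 CCAAT boxes, and the Lgals3 window 18 CpG, 2 GC boxes and 1 CCAAT box. Those of Myh7 and Cpn2 held 5 and 4 CpG and no GC box, with 1 CCAAT box in Myh7 and 1 TATA box in Cpn2. Myh7 had 2 promoter entries, and its letters and motifs are those of the 1 window shown. Over all partners, 65.2% of the windows held a GC box, against 35.9% of the windows of all 27025 genes with an entry and 48.0% of those of protein-coding genes, while a TATA box was found in 8.99%, 14.2% and 12.9% of them in the same order. The median number of CpG dinucleotides was 23 in the partners' windows, 7 over all genes and 14 over protein-coding genes. A match describes these letters only and is no evidence of a bound factor.

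Most partners were protein-coding: 1245 of the 1440 members lay antisense to a single protein-coding gene, 30 to a lincRNA, 29 to an annotated antisense RNA, and 47 to a locus of the TEC class, which awaits experimental testing. Protein-coding genes made up 86.5% of the partners and 40.8% of the annotated genes in the table. The members were 357 to 10238 bases long, with a median of 980.

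Of the 1440 members, 420 (29.2%) had 0 counts in all 16 libraries, 1020 had at least 1 count, and 346 were above 0 in every library. Among the unannotated genes with a number only, 859 of 8236 (10.4%) were at 0 throughout. The partners of the members at 0 were themselves expressed, with a median of 4.52 CPM per kilobase, against 5.995 for partners of members with few counts and 9.62 for partners of members that could be tested. CPM is the count relative to the total of a library, scaled between libraries by TMM, and division by the gene's length in the table allows comparison between genes. Members at 0 lay antisense to some abundant transcripts of the heart. Among them were AS-Myl3, across from a ventricular myosin light chain at 745 CPM per kilobase, AS-Hadhb, across from a subunit of the mitochondrial trifunctional protein at 152, and AS-Malat1, across from a nuclear noncoding RNA at 118.

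All 5 members on the mitochondrial genome, AS-mt-Nd2, AS-mt-Nd4, AS-mt-Nd5, AS-mt-Cytb and a member named for mt-Nd4l and mt-Nd3 together, had 0 counts. A 0 in this table does not by itself show that reads are missing. The rows of mt-Cytb, mt-Nd3 and mt-Nd4l, which encode respiratory chain subunits, also held 0 counts in all 16 libraries, while the deposited transcript table gave them a mean of 7281, 16828 and 6936 TPM (transcript abundance relative to all transcripts of a library). The same was so for Myl12b, a regulatory myosin light chain, with 0 counts and 445 TPM, and for Sept2 (71.1 TPM), Nnt (66.2 TPM) and Evi2b (12.2 TPM). For all of these but mt-Cytb, the member's identifier names a pair of genes. Among protein-coding genes above 5 TPM, 8 of 1113 partners (0.719%) and 28 of 8451 other genes (0.331%) had 0 counts. For those with counts, the median of the count per length over the TPM, each as a share of its library's total, was 0.69 on the log2 scale for partners and 1.00 for other genes. What set these rows to 0 was not tested. Because a count of 0 can arise in this way, no upper limit is drawn from it.

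The MI libraries were the deepest, at 57215382 to 63070805 counts assigned to genes, and the libraries of the other groups held 24273984 to 31832969 counts. The members together took 0.0747% to 0.0876% of the counts. That share was 0.0777% ± 0.00257 (SD, n = 4) in MI and 0.0769% ± 0.00170 in MISham (exact permutation test, two-sided, p = 0.743), and 0.0836% ± 0.00167 in IR and 0.0821% ± 0.00421 in IRSham (p = 0.457). The smallest p that 4 against 4 libraries allow is 0.0286, and these p-values adjusted over the 8 tests of this kind were 0.743 and 0.522. With mitochondrially encoded genes left out of the total, the share was -0.00401 points (injured minus sham) in MI and -0.00239 in IR (exact permutation p = 0.0857 and 0.429), so the direction of this share depends on the denominator. More members were detected in injured hearts, 784 to 815 in MI against 592 to 640 in MISham, and 691 to 717 in IR against 612 to 659 in IRSham. At the depth of the smallest library, the number expected from each library's counts was 711 to 727 in MI, 592 to 633 in MISham, 685 to 702 in IR and 609 to 646 in IRSham, and the injured and sham ranges did not overlap (exact permutation p = 0.0286 in both, adjusted p = 0.0571, higher in 4 of 4 injured libraries).

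The tissue label was checked against markers. Ventricular cardiomyocyte markers, 7 genes including Myh6 and Tnni3, summed to 59373 to 70806 CPM in MISham and 10746 to 20296 in MI, and to 65221 to 70047 in IRSham and 12360 to 24803 in IR, and all 7 fell in both comparisons. The 4 macrophage markers all rose in both, from 355 to 888 CPM in MISham to 1709 to 2514 in MI, and from 664 to 1142 in IRSham to 1999 to 3652 in IR. The 4 fibroblast markers summed to 6534 to 8465 CPM in MI against 1003 to 3047 in MISham, and to 7349 to 8634 in IR against 2020 to 2719 in IRSham. The 4 atrial markers were Myl7, Myl4, Sln and Nppa, and Sln held 0 counts in every library. They summed to 227 to 460 CPM in MI against 18.97 to 30.8 in MISham, and to 151 to 340 in IR against 27.3 to 61.7 in IRSham. Of the 2 tested, 1 rose in both, and whether atrial tissue or another source raised the sum was not tested. In bulk tissue, fewer cells of a type and less RNA per cell cannot be told apart. Within groups, MISham libraries 1 and 3 had the lowest cardiomyocyte sums of that group (61370 and 59373 CPM) and its highest macrophage sums (888 and 672 CPM), and IR libraries 1 and 3 had the highest cardiomyocyte sums of theirs (24803 and 21035 CPM). Counts without these libraries are given beside the results they bear on.

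A total of 376 members passed the filter on low counts, among 19741 genes tested. Their levels were low: the median over the tested members was 0.535 CPM per kilobase, against 0.759 for tested unannotated genes with a number only and 3.43 for tested annotated genes. For 344 members, 1 partner passed the filter as well. In these pairs the member's level per kilobase was a median of 0.0561 of that of its partner, with quartiles of 0.0198 and 0.141. The member stood above its partner in 15 of the 344. AS-B230312C02Rik stood at 6.11 times the level of its partner, AS-Cpn2 at 4.76 times, AS-Tceanc at 4.11 times, AS-Cep85 at 2.34 times and AS-Trdn at 1.1 times. B230312C02Rik and Cpn2 were themselves hardly expressed, at 0.252 and 0.0832 CPM per kilobase, whereas Cep85 and Trdn stood at 8.72 and 19.5.

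**Figure D1:**
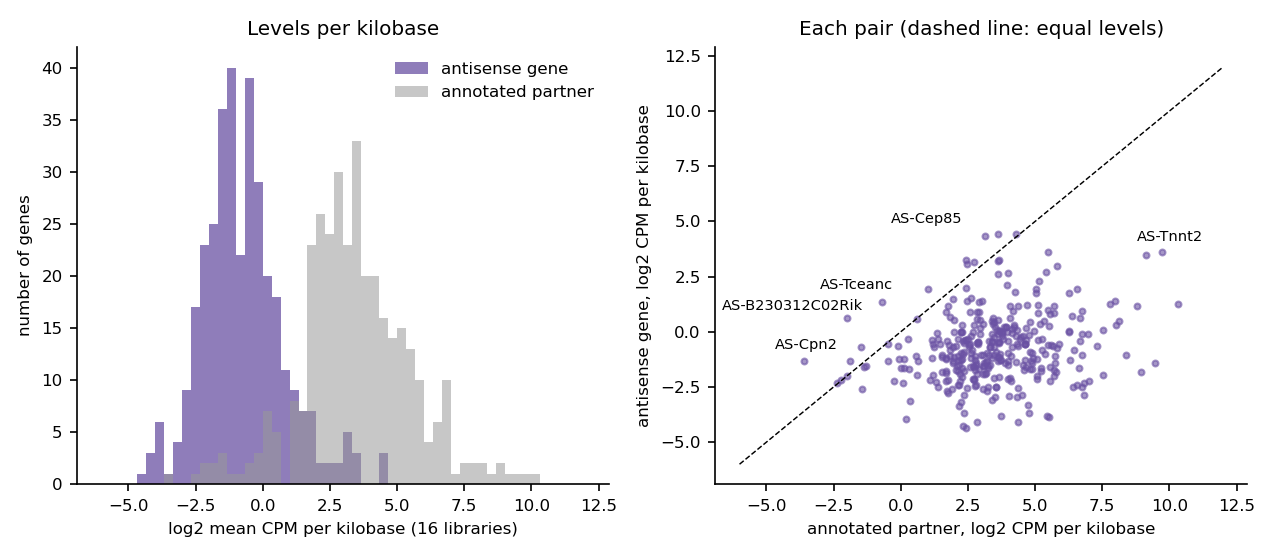
Levels of the 344 pairs in which both genes were tested, as the log2 of the mean CPM per kilobase over 16 libraries: as histograms (left; members in purple, partners in grey) and as 1 point a pair (right). Nearly all points lie below the dashed line of equal levels, where the median ratio was 0.0561, and 15 lie above it.

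The counts of the members were concentrated in a few loci. AS-Cep85, 4501 bases long, was the most abundant in CPM, followed by AS-Myh7, AS-Trdn, AS-Gm29237, AS-Strn3, AS-Tnnt2, AS-Psap, AS-Ccnt2, AS-AC161438.1 and AS-Pqlc1, and the 10 together took 34.0% to 47.5% of all counts assigned to members. AS-Cep85 alone took 15.4% to 16.8% of them in MI and 3.72% to 6.70% in MISham, and 13.4% to 19.5% in IR and 6.69% to 10.3% in IRSham. Of the 10, AS-Myh7, AS-Trdn, AS-Gm29237, AS-Strn3, AS-Tnnt2 and AS-Pqlc1 fell in both injuries and AS-Cep85, AS-Psap and AS-AC161438.1 rose in both, while AS-Ccnt2 was at -0.23 in MI (adjusted p = 0.1) and -0.32 in IR (adjusted p = 0.032), a call lost in 9 of 15 other settings of the analysis.

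After myocardial infarction, 56 members rose and 84 fell of the 376 tested (37.2%, by edgeR's quasi-likelihood test with Benjamini-Hochberg adjustment over all genes, adjusted p below 0.05). Among all genes tested the share called was 64.9%, 34.8% higher and 30.2% lower, among annotated genes 67.5%, and among the unannotated genes with a number only 43.4%. After ischemia-reperfusion, 41 members rose and 74 fell (30.6%), against 57.7% of all genes, 29.5% higher and 28.2% lower, 60.5% of annotated genes and 32.5% of the other unannotated genes. The median standard error of a log2 fold change was 0.43 for members and 0.10 for partners in MI, and 0.45 and 0.10 in IR, so the members' lower counts gave less precise folds. The median log2 fold change over tested members was 0.03 in MI and 0.03 in IR, against 0.08 and 0.03 over all genes. The excess of falling members depended on the scaling. By library size alone, without TMM, which moved the median of all genes to 0.39 in MI and 0.32 in IR, 95 members rose and 72 fell in MI and 71 rose and 57 fell in IR. Without MISham libraries 1 and 3, 142 members were called in MI (54 higher, 88 lower), and without IR libraries 1 and 3, 104 were called in IR (32 higher, 72 lower). The filter acts on all 16 libraries. With filter and fit on the 2 groups compared alone, 137 of 389 tested members were called in MI and 99 of 309 in IR.

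The 2 injuries, each set against its own sham group, called many of the same members. Of the members that fell, 62 were called in both, which is 73.8% of those that fell in MI and 83.8% of those that fell in IR. Of the members that rose, 29 were called in both, which is 51.8% of the MI list and 70.7% of the IR list, and none was called in opposite directions. Over all genes tested these shares were higher: 82.2% and 88.0% for falling genes and 76.3% and 90.1% for rising genes. The difference of the MI and IR responses was called by edgeR for 0 members and 0.192% of all genes. At an unadjusted p below 0.05 there were 20 members (5.32%) and 14.7% of all genes, and DESeq2 called 6 members and 3.06% of the genes to which it gave an adjusted p. The smallest adjusted p among the members was 0.089, for AS-Lgals4, whose fall was larger in MI. MISham against IRSham gave 0 calls among members by edgeR, against 3.2% of all genes. At an unadjusted p below 0.05 there were 23 members (6.12%) and 14.2% of all genes, and DESeq2 called 5 members and 4.88% of all genes. With the filter and the edgeR fit on the 2 sham groups alone, 261 members were tested and 0 called.

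Most tested members antisense to genes of the contractile apparatus fell in MI. Of 30 listed sarcomere genes 10 had a member, 7 of these members were tested, 6 fell and 1 rose in MI, and 4 fell and 1 rose in IR. Over all genes tested 30.2% fell in MI and 28.2% in IR, and over all tested members 22.3% and 19.7%. The list's median log2 fold change was -1.97 in MI and -1.13 in IR, and the members at 0 were AS-Myl3 and AS-Xirp2. AS-Tnnt2, across from cardiac troponin T of the thin filament, had 27.6, 35.6, 31.9 and 39.6 CPM in the 4 MISham libraries and 6.72, 7.43, 11.6 and 8.52 in MI. In IRSham it had 35.1, 28, 25.1 and 32.5 CPM, and 12.8, 8.67, 13.1 and 7.06 in IR. Every injured library lay below every sham library, and the fitted log2 fold change was -1.97 (SE 0.21, adjusted p = 4.3e-07) in MI and -1.54 (SE 0.21, adjusted p = 9.6e-06) in IR. Tnnt2 itself fell by nearly as much, with log2 fold changes of -1.66 and -1.52, and the change of the ratio was not called (adjusted p = 0.42 and 0.92, limma). AS-Tpm1, across from tropomyosin 1, changed by -1.61 in MI and -1.03 in IR. AS-Ttn, the longest member at 10238 bases and across from titin, fell in MI (-1.91, SE 0.61, adjusted p = 0.011), and in IR its log2 fold change was -1.13 (SE 0.63, adjusted p = 0.14). AS-Mylk3, across from the cardiac myosin light chain kinase, was at -2.05 (SE 0.43, adjusted p = 0.00046) in MI and -1.08 (SE 0.46, adjusted p = 0.051) in IR. The sum of the ventricular cardiomyocyte markers fell with these members, and its part in their change was not tested.

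In the list of calcium handling and ion channel genes, 5 of 30 had a member and 3 of these were tested. All 3 fell in MI and 2 in IR, beside 30.2% and 28.2% of all genes, with list medians of -1.85 and -1.38. AS-Cacna1c, with 90 counts over 16 libraries, and AS-Kcnj2, with 0, could not be tested. AS-Trdn, across from triadin, which anchors calsequestrin to the calcium release channel of the sarcoplasmic reticulum, ranged over 50.01 to 65.8 CPM in MISham and 12.6 to 22.2 in MI, and over 53.6 to 59.4 in IRSham and 14.9 to 31.2 in IR. Its log2 fold change was -1.86 (SE 0.21, adjusted p = 1.5e-06) in MI and -1.38 (SE 0.21, adjusted p = 4.2e-05) in IR. Trdn changed by -1.74 and -1.27, and the change of the ratio was not called (adjusted p = 0.76 and 0.71). AS-Atp2a2, across from the calcium pump SERCA2, changed by -1.85 (SE 0.33, adjusted p = 8.4e-05) and -1.45 (SE 0.33, adjusted p = 0.0012). AS-Ryr2, across from the cardiac ryanodine receptor, was at -1.32 in MI (adjusted p = 0.0095) and -0.59 in IR (adjusted p = 0.24). AS-Mef2d, across from a cardiac transcription factor and the 1 tested member of 3 in that list, changed by -0.99 in MI and -0.60 in IR (adjusted p = 0.0003 and 0.018), and the IR call was lost in 5 of 15 other settings.

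AS-Myh7 was the second most abundant member. Myh7 encodes the beta myosin heavy chain, the slow isoform that the adult mouse ventricle makes in small amounts. AS-Myh7 had 92.6, 93.8, 75.2 and 82.5 CPM in MISham and 10.1, 10.5, 23.7 and 14.4 in MI, and 98.4, 102, 99.1 and 149 in IRSham and 29.1, 4.91, 19.3 and 8.58 in IR. All 8 injured libraries lay below all 8 sham libraries, MI library 3 and IR libraries 1 and 3 were the highest of the injured ones, and the log2 fold change was -2.55 (SE 0.44, adjusted p = 0.00017) in MI and -2.87 (SE 0.45, adjusted p = 9.5e-05) in IR. Myh7 had 467, 443, 426 and 510.2 CPM in MISham and 217, 279.8, 630.1 and 364 in MI, groups that overlapped, and its log2 fold change of -0.31 was not called (adjusted p = 0.52). In IR, at 185, 295, 662 and 230.1 CPM against 1469, 678, 899 and 725 in IRSham, Myh7 fell by 1.46 on the log2 scale (adjusted p = 0.0074). The log2 ratio of AS-Myh7 to Myh7 accordingly changed by -2.21 (SE 0.51, adjusted p = 0.012) in MI and -1.58 (SE 0.51, adjusted p = 0.077) in IR, where it was not called. By the summed TPM of its transcripts, Myh7 was at 129.7 ± 59.6 in MI and 45.3 ± 5.79 in MISham (SD, n = 4), a higher mean in MI, and the ratio change on that scale was -3.51. Mhrt, the annotated noncoding gene on the same strand as AS-Myh7, fell with it, at -3.06 in MI and -3.07 in IR (adjusted p = 5.7e-05 and 8.3e-05).

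**Figure D2:**
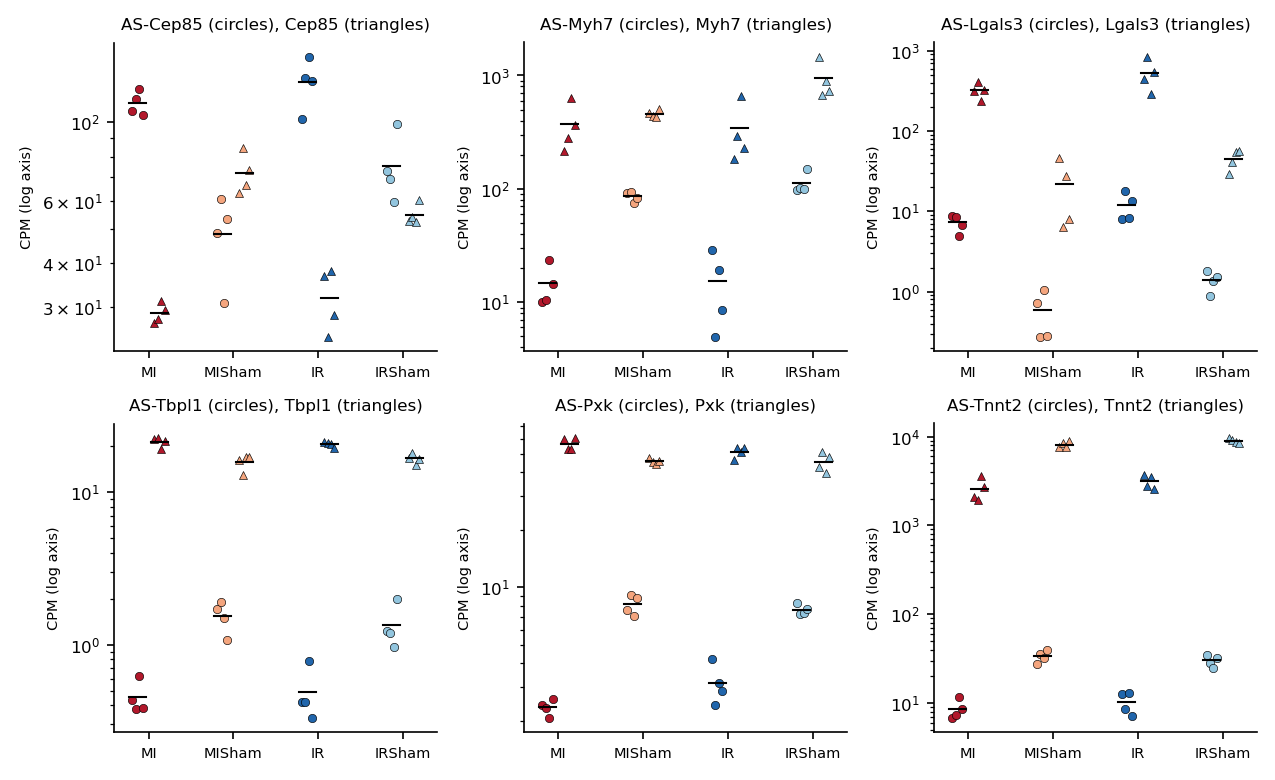
CPM on a log axis in each of the 4 libraries of each group for 6 members (circles) and their partners (triangles), with horizontal bars for group means. AS-Cep85 rose while Cep85 fell, AS-Myh7 fell in every injured library while Myh7 overlapped between MI and MISham, AS-Lgals3 and AS-Tnnt2 moved with their partners, and AS-Tbpl1 and AS-Pxk fell across from partners that did not.

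The largest falls of single members were seen at other loci. AS-Cpn2, across from the regulatory subunit of carboxypeptidase N, had 1.84, 1.71, 2.36 and 1.21 CPM in MISham and 0.0145, 0.028, 0.0802 and 0 in MI, the latter from 0 to 5 counts a library. In IRSham it had 1.42, 1.14, 1.69 and 1.02 CPM and in IR 0.529, 0.112, 0.181 and 0.0598. The groups did not overlap in either comparison, and the log2 fold change was -5.75 (SE 0.66, adjusted p = 6.5e-07) in MI and -2.61 (SE 0.56, adjusted p = 0.0007) in IR. The next gene on the same strand with a member was Lrrc15, which encodes a leucine-rich repeat membrane protein, and AS-Lrrc15 changed by -3.83 and -2.998. Lrrc15 itself changed by -2.43 and -2.20, while the few counts of Cpn2 gave -0.94 and -0.44, neither called (adjusted p = 0.13 and 0.51).

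The other members among the 10 largest falls in MI were mostly across from genes that fell too. AS-Lgals4, across from galectin-4, changed by -4.28 (SE 0.30, adjusted p = 4.4e-09) in MI and -2.63 (SE 0.28, adjusted p = 6.3e-07) in IR, and Lgals4 by -3.69 and -2.52. AS-Adhfe1, across from a mitochondrial hydroxyacid-oxoacid transhydrogenase, changed by -3.94 and -2.87, AS-Uqcrc1, across from a core subunit of respiratory complex III, by -3.18 and -2.07, and AS-Wnk2, across from a WNK kinase gene, by -3.15 and -2.29. AS-Kcnv2, across from a modifier subunit of voltage-gated potassium channels, had 0.176, 0, 0 and 0 CPM in IR against 0.412, 1.28, 0.363 and 0.776 in IRSham. In 3 IR libraries its count was 0, so the fitted fold depends on the prior count. It fell in both comparisons, at -3.69 (SE 0.69, adjusted p = 0.00015) and -4.05 (SE 0.85, adjusted p = 0.00057), and Kcnv2 fell by more in MI, at -5.18. Without IR libraries 1 and 3, the IR value was -7.75 for AS-Kcnv2, -5.35 for AS-Lrrc15, -4.01 for AS-Uqcrc1 and -4.995 for AS-Adamts7, and without MI library 4 the MI value of AS-Adhfe1 was -6.15. These calls held. AS-Gm5463 changed by -2.89 and -2.08, AS-4633401B06Rik by -2.87 and -1.48, and AS-Adamts7, across from a secreted metalloprotease, by -2.83 and -2.90. Among the largest falls in IR that were not among those of MI were AS-Gm15948 at -5.18 (SE 0.65, adjusted p = 3.3e-06), with 0 counts in IR libraries 2 and 3 and a partner that did not pass the filter, AS-Phyhip at -2.67, and AS-Acacb, across from the acetyl-CoA carboxylase that restrains fatty acid entry into mitochondria, at -2.44.

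AS-Lgals3 had the largest rise in both injuries. Its partner encodes galectin-3, a lectin abundant in activated macrophages. AS-Lgals3 had 0.722, 0.27, 1.06 and 0.28 CPM in MISham and 8.66, 8.63, 4.96 and 6.85 in MI, and 1.84, 0.88, 1.37 and 1.51 in IRSham and 8, 18.1, 8.24 and 13.3 in IR. MISham libraries 1 and 3 were above the other MISham libraries, every injured library lay above every sham library, and the log2 fold change was 3.60 (SE 0.40, adjusted p = 5.5e-07) in MI and 3.08 (SE 0.36, adjusted p = 1.9e-06) in IR. Lgals3 changed by 3.87 and 3.55, with the same 2 MISham libraries high at 45.6, 6.48, 27.4 and 8.07 CPM, and the ratio was not called as changed (adjusted p = 0.32 and 0.46). Of 4 members in the list of monocyte, macrophage and neutrophil genes, 1, AS-Lgals3, passed the filter.

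In MI, AS-Fgr, across from a Src-family kinase of myeloid cells, changed by 2.88 (SE 0.68, adjusted p = 0.0013), AS-Pstpip1, across from a cytoskeletal adaptor of leukocytes, by 2.70, and AS-Sbno2, across from a transcriptional co-regulator, by 2.63. Without MISham libraries 1 and 3, AS-Sbno2 was at 4.69. In IR these were at 0.37, 0.67 and 0.84 and were not called (adjusted p = 0.64, 0.32 and 0.16), and the difference between the injuries was not called for them either. Their means, in the same order, were 1.20, 0.844 and 0.666 CPM in MI and 0.501, 0.579 and 0.475 in IR. The sham means were 0.159, 0.127 and 0.101 CPM in MISham and higher in IRSham, at 0.385, 0.364 and 0.264, a difference not called. AS-Lat2, across from an adaptor of immune receptor signalling, rose in both, by 2.21 (SE 0.42, adjusted p = 0.00016) and 1.88 (SE 0.41, adjusted p = 0.00076). The same was true of AS-Fyb, across from another leukocyte adaptor, at 2.07 and 2.43, and of AS-Tmem106a at 2.32 and 1.35. AS-Fstl1, across from a secreted glycoprotein of fibroblasts, changed by 3.10 (SE 0.89, adjusted p = 0.0055) and 2.07 (SE 0.81, adjusted p = 0.036). Its level was 0.0767 ± 0.0763 CPM in MISham, with a lowest value of 0, and 0.671 ± 0.3 CPM in MI (SD, n = 4). The IR rise of AS-Fstl1 was lost in 8 of 14 other settings. AS-Acta2, the 1 tested member of 7 in the list of matrix and fibroblast genes and across from smooth muscle actin, changed by 1.77 in MI and 1.52 in IR (adjusted p = 0.021 and 0.046), and the IR call was lost in 7 of 15 other settings. The IR value of AS-Acta2 was 0.70 without IR libraries 1 and 3, and its MI value was 2.73 without MISham library 4. Acta2 itself changed by 2.385 in MI (adjusted p = 1.7e-07) and was at -0.24 in IR (adjusted p = 0.35). Among the largest rises in IR were also AS-Ccm2 (1.93), AS-Gm38158 (1.86), AS-Zdhhc16 (1.83) and AS-H3f3b (1.82), with AS-Zdhhc16 lost in 10 of 15 other settings. All 4 macrophage markers rose in both injuries, and of 4 fibroblast markers 3 rose in both and 1 fell in MI. The 3 neutrophil markers all rose in MI (151 to 358 CPM against 25.3 to 97.5) and 1 rose in IR (77.8 to 153 CPM against 27.4 to 97.1). The 3 lymphocyte markers all rose in MI, from 2.09 to 3.01 CPM to 4.04 to 5.72, and none was called in IR. Of 3 smooth muscle and pericyte markers, 1 rose and 2 fell in each injury. The part of these cell types in the rises was not tested. No member was called in either injury in the lists of mitochondrial energy genes (1 tested), cytokine and antigen presentation genes (1), endothelial and mural genes (1) and splicing regulators (1). The 1 tested in the mitochondrial energy list was AS-Atp5b. AS-Uqcrc1 and AS-Adhfe1, across from mitochondrial genes outside that list, fell in both injuries, as given above. In the lists of cell cycle genes and of imprinted and antisense loci, no member passed the filter.

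A member and its partner mostly moved the same way. In MI both were called in 108 of the 344 pairs, with 60 falling together, 39 rising together and 9 moving in opposite directions. In IR both were called in 96 pairs, of which 59 fell together, 30 rose together and 7 moved in opposite directions. The same direction was thus seen in 91.7% and 92.7% of them. Of all 344 partners, 135 rose and 131 fell in MI, and 118 rose and 137 fell in IR. Because the strand setting is not stated, a member and its partner may share reads, and the part of shared reads in this agreement was not tested. A partner was called without its member in 158 pairs in MI and 159 in IR, and a member without its partner in 16 and 6. Without TMM, 119 of 128 pairs in MI and 91 of 99 in IR moved in the same direction.

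**Figure D3:**
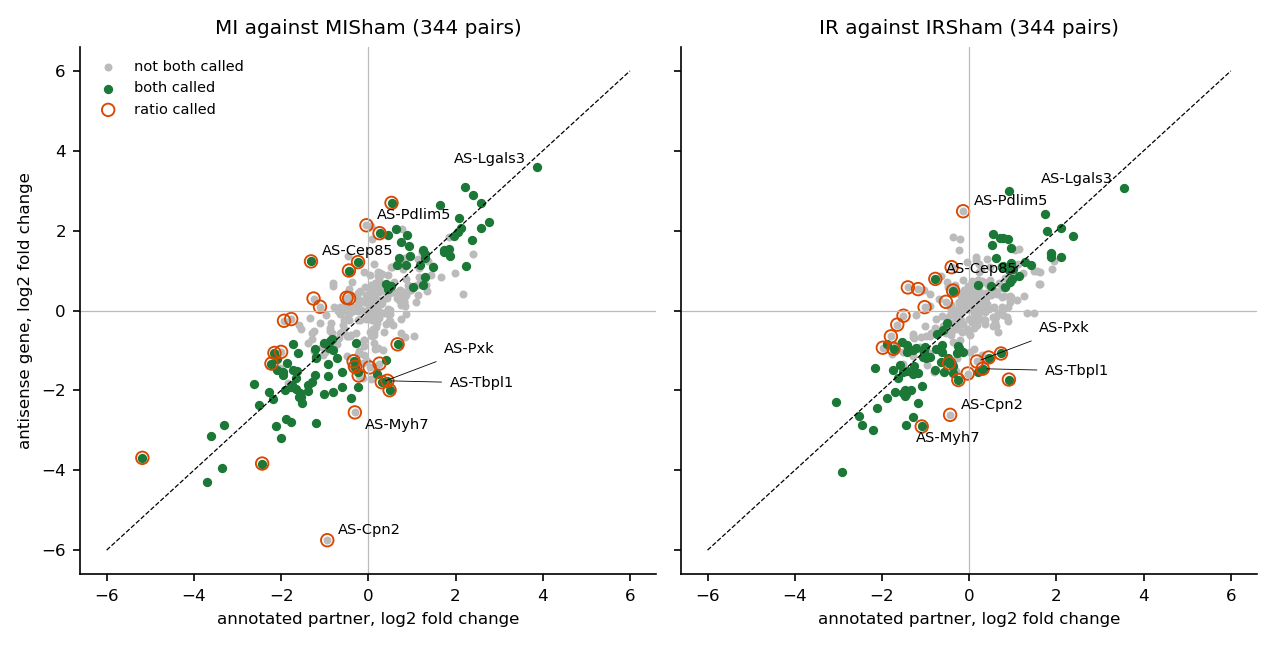
Log2 fold change of the member (vertical) against that of its partner (horizontal) for 344 pairs, in MI against MISham (left) and IR against IRSham (right). Green points are pairs in which both genes were called, 108 in MI and 96 in IR, orange rings mark the 28 and 23 pairs whose ratio was called as changed, and the dashed line is equal change.

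The ratio of a member to its partner, taken within each library and tested with limma on the log2 scale, was called as changed in 28 of 344 pairs in MI (8.14%, 16 higher and 12 lower) and 23 in IR (6.69%, 13 higher and 10 lower). The 13 pairs called in both changed in the same direction in both, which is 46.4% of the MI pairs and 56.5% of the IR pairs. The count and the balance of directions depended on the settings. In MI it was 52 (17 higher, 35 lower) with the partner's count as an edgeR offset, 57 (25 higher, 32 lower) with a prior count of 5, and 44 (11 higher, 33 lower) with the partner in TPM. In IR it was 29 (14 higher, 15 lower), 38 (22 higher, 16 lower) and 15 (3 higher, 12 lower) under the same settings. In MI it ranged from 15 to 29 when single libraries were left out, 15 being the value without MI library 1, and in IR from 6 to 23, with 6 without IRSham library 1, 8 without IR library 2, 10 without IR library 4 or IRSham library 4, and 15 without IRSham library 2. Without MISham libraries 1 and 3 it was 23 in MI, and without IR libraries 1 and 3 it was 22 in IR.

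AS-Cep85 had the largest rise of the ratio in MI and moved against its partner in both injuries. Cep85 encodes a centrosomal protein. AS-Cep85 had 48.6, 60.5, 30.8 and 53.3 CPM in MISham and 108, 116, 124 and 105 in MI, and 72.9, 69.2, 59.4 and 98.9 in IRSham and 102, 133, 153 and 131 in IR. Cep85 had 62.9, 84.6, 66.4 and 73.2 CPM in MISham and 27.1, 27.7, 31.3 and 29.5 in MI, and 52.5, 53.8, 52.1 and 60.2 in IRSham and 36.6, 24.6, 38 and 28.4 in IR. Neither gene overlapped between an injured group and its sham, and the 2 genes moved apart. The log2 fold change of AS-Cep85 was 1.23 (SE 0.19, adjusted p = 3.4e-05) in MI and 0.79 (SE 0.19, adjusted p = 0.0019) in IR, and that of Cep85 was -1.31 (SE 0.12, adjusted p = 6.3e-08) and -0.78 (SE 0.12, adjusted p = 3.1e-05). Per kilobase, AS-Cep85 stood at 10.7 CPM in MISham against 13.4 for Cep85, and at 25.2 against 5.38 in MI, so that the order of the 2 genes was reversed. In IRSham the levels were 16.7 and 10.2, and in IR 28.9 and 5.94. The log2 ratio changed by 2.57 (SE 0.25, adjusted p = 7.1e-06) in MI and 1.60 (SE 0.25, adjusted p = 0.0022) in IR. By summed TPM the fall of Cep85 was smaller, from 25.3 ± 2.79 to 20.5 ± 1.36 TPM in MI and from 23.1 ± 4.69 to 19.2 ± 5.48 in IR (SD, n = 4), and the ratio change on that scale was 2.08 and 1.56 (adjusted p = 0.00029 and 0.0066). The opposite directions held under TMM, library size alone and DESeq2 size factors.

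Most of the other opposite pairs had a falling member across from a rising partner. In MI, these were AS-Pxk, AS-Tbpl1, AS-Ldlrad4, AS-Adgre5, AS-Rab1a and AS-Cdk8, and the rising members included AS-Cep85 and AS-Tsc22d1. In IR they were AS-Sp110, AS-Tbpl1, AS-Adgre5, AS-Lamb1 and AS-Cdk8, with AS-Cep85 and AS-Dvl3 rising. AS-Cdk8 falls outside the rule for named genes and was chosen after its values were seen. AS-Rab1a, across from a small GTPase of early secretion, was at -1.23, SE 0.44, adjusted p = 0.021 in MI, AS-Tsc22d1 at 1.00, SE 0.37, adjusted p = 0.026 in MI, calls lost in 4 and 6 of 15 other settings, and AS-Dvl3, across from a dishevelled protein of Wnt signalling, at 0.50, SE 0.14, adjusted p = 0.0064 in IR. Without MISham libraries 1 and 3, AS-Rab1a was at -0.60. The ratio of AS-Syvn1, across from a ubiquitin ligase of the endoplasmic reticulum, fell in MI (-1.49, SE 0.30, adjusted p = 0.0061). Under all of TMM, library size alone and DESeq2 size factors, the opposite calls held for AS-Cep85, AS-Pxk, AS-Tbpl1, AS-Ldlrad4 and AS-Cdk8 in MI and for AS-Cep85, AS-Tbpl1, AS-Adgre5, AS-Sp110 and AS-Cdk8 in IR. The others were lost under library size alone.

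AS-Pxk is a short member of 582 bases across from Pxk, which encodes a PX-domain protein with a kinase-like fold. It had 7.62, 9.13, 7.09 and 8.82 CPM in MISham and 2.4, 2.33, 2.05 and 2.61 in MI, and 8.28, 7.26, 7.33 and 7.64 in IRSham and 4.2, 2.43, 3.14 and 2.87 in IR. The groups did not overlap, and the log2 fold change was -1.79 (SE 0.16, adjusted p = 5.7e-08) and -1.28 (SE 0.17, adjusted p = 4.2e-06). Pxk ranged over 44.2 to 47.3 CPM in MISham and 52.9 to 60.9 in MI and changed by 0.31 (adjusted p = 0.0026), and in IR it was at 0.18 (adjusted p = 0.071). The ratio changed by -2.08 (SE 0.24, adjusted p = 2.8e-05) in MI and -1.46 (SE 0.24, adjusted p = 0.0022) in IR. AS-Tbpl1, across from a relative of the TATA-binding protein, had 1.72, 1.89, 1.5 and 1.07 CPM in MISham, 0.435, 0.378, 0.626 and 0.383 in MI, 1.24, 1.19, 0.967 and 2 in IRSham and 0.423, 0.418, 0.784 and 0.329 in IR. All injured libraries lay below all sham libraries, with log2 fold changes of -1.76 and -1.46, while Tbpl1 rose by 0.44 and 0.31. AS-Ldlrad4, across from a regulator of TGF-beta signalling, changed by -1.99 in MI against 0.49 for Ldlrad4. In IR it was at -0.54 (adjusted p = 0.45), with IR libraries 1 and 3, at 0.599 and 0.603 CPM, within the IRSham range of 0.352 to 0.806. AS-Adgre5, across from the leukocyte adhesion receptor CD97, changed by -0.85 and -1.18 against 0.67 and 0.45 for its partner, and the MI call of AS-Adgre5 was lost in 6 of 15 other settings. AS-Lamb1, across from a laminin chain of basement membranes, was called in IR only (-1.08, SE 0.45, adjusted p = 0.048), and that call was lost in 9 of 15 other settings and was -1.98 without IR libraries 1 and 3. AS-Sp110, across from an interferon-induced nuclear body gene, fell in IR (-1.73, SE 0.60, adjusted p = 0.02), a call lost in 4 of 14 other settings. In MI it was at 0.78 (SE 0.58, adjusted p = 0.25), with the difference of the responses not called.

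**Figure D4:**
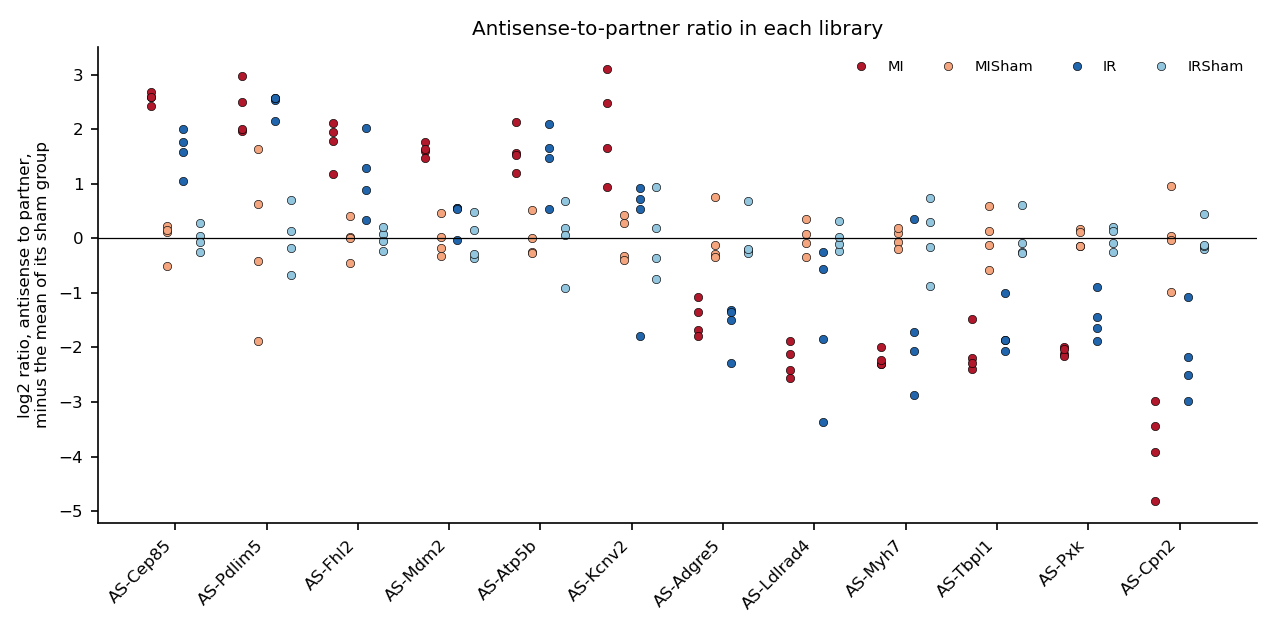
The log2 ratio of member to partner in each library, minus the mean of the sham group of that injury, for 12 pairs named in the text, with 1 point a library. AS-Cep85 and AS-Pdlim5 lie above their sham groups in every injured library and AS-Pxk, AS-Tbpl1, AS-Adgre5 and AS-Cpn2 below.

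In other pairs 1 of the 2 genes changed little or did not pass the test. AS-Pdlim5, across from a Z-disc protein, was the 1 sarcomere member that rose. It had 0, 0.54, 0.236 and 0.0933 CPM in MISham and 1.41, 0.575, 1.11 and 0.737 in MI, and 0.15, 0.22, 0.322 and 0.0817 in IRSham and 1.09, 1.31, 0.996 and 0.987 in IR. Every injured library lay above its sham group, at log2 fold changes of 2.14 (SE 0.60, adjusted p = 0.0045) and 2.49 (SE 0.61, adjusted p = 0.002), whereas Pdlim5 was at -0.04 and -0.14 (adjusted p = 0.73 and 0.25). AS-Mdm2, across from the ubiquitin ligase of p53, rose by 1.94 in MI, beside 0.26 for Mdm2, with a ratio change of 1.61 (SE 0.26, adjusted p = 0.00081), and AS-Ssh1, across from a cofilin phosphatase, by 2.69 beside 0.53, with a ratio change of 1.66. In IR AS-Mdm2 was at 0.63 (SE 0.27, adjusted p = 0.0499), a call lost in 9 of 15 other settings. Its mean was 2.22 CPM in MI and 0.58 in MISham, and 1.89 in IR and 1.22 in IRSham. AS-Ankrd1, across from a stress-induced cardiac ankyrin repeat protein, rose by 1.31 and 1.09, and its ratio rose in IR (1.44, SE 0.27, adjusted p = 0.0054), where Ankrd1 was at -0.40 (adjusted p = 0.072). For AS-Fhl2 in MI and AS-Atp5b in both injuries the partner fell and the member was not called. Fhl2, a LIM-domain cofactor of cardiac muscle, changed by -1.93 in MI and AS-Fhl2 by -0.26 (adjusted p = 0.49), and in IR AS-Fhl2 was at -0.83 (SE 0.32, adjusted p = 0.034), a call lost in 9 of 15 other settings. Atp5b, the beta subunit of ATP synthase, changed by -1.77 and -1.65 and AS-Atp5b by -0.21 and -0.35 (adjusted p = 0.67 and 0.49). For AS-Kcnv2 the ratio rose in MI (2.05, SE 0.58, adjusted p = 0.041) with the partner measured in counts and was -0.93 with the partner in TPM (adjusted p = 0.18), so its direction depends on how Kcnv2 was measured, and the call was lost in 12 of 15 other settings. AS-Tceanc (ratio change -1.62), AS-Adamts7 (-1.76), AS-Pde4a (2.00) and AS-Mmaa (1.68) were among the largest ratio changes in IR. These calls were lost in 5, 8, 14 and 8 of 15 other settings, in the same order.

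Annotated genes on the same strand as the member, overlapping the partner or within 10 kb of it in GENCODE M21 (GRCm38), were set beside the members. This comparison was chosen after values of named pairs had been seen, and where several such genes were tested the one with the highest mean CPM was taken. Such a gene was tested for 220 of the 376 members. In MI the member and this neighbour were both called in 70 cases and moved the same way in 40, and in IR in 45 cases, 32 the same way. Among the 9 opposite pairs of MI, 8 had a tested neighbour, which was called in the direction of the member in 7 and of the partner in 1. Of the 7 opposite pairs of IR, all had a tested neighbour, called in the direction of the member in 3 and of the partner in 2. In an opposite pair, a neighbour that is called necessarily moves with the member or with the partner. Over all genes tested, 34.8% rose and 30.2% fell in MI, and 29.5% rose and 28.2% fell in IR.

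Where the neighbour lies tail to tail with the partner, it and the member moved the same way in 26 of 47 cases with both called in MI and 19 of 27 in IR. The counts were 6 of 13 and 6 of 11 for head to head genes, and 8 of 10 and 7 of 7 where 1 gene lies within the other. Over all arrangements they were 40 of 70 in MI and 32 of 45 in IR. At several loci chosen for their pairs the neighbour lies tail to tail with the partner, so that the 3' ends of the 2 annotated genes face each other. Beside Pxk lies Pdhb, the beta subunit of pyruvate dehydrogenase, which had 685 to 850 CPM in MISham and 168 to 253 in MI. It changed by -1.91 (SE 0.16, adjusted p = 2.5e-08) in MI and -1.62 (SE 0.16, adjusted p = 2.8e-07) in IR, beside -1.79 and -1.28 for AS-Pxk. Slc2a12, a glucose transporter gene that overlaps Tbpl1, changed by -2.77 and -2.14, and Fam210a, a mitochondrial protein gene that overlaps Ldlrad4, by -1.89 and -1.44. Dld, which encodes the dihydrolipoamide dehydrogenase subunit shared by mitochondrial dehydrogenases and lies beside Lamb1, changed by -1.76 and -1.38. All 4 fell in both injuries (largest adjusted p = 5.2e-05), while the fitted changes of Pxk, Tbpl1, Ldlrad4 and Lamb1 were above 0. Beside Cep85, Ubxn11 had 0.602, 0.675, 0.669 and 1.12 CPM in MISham and 1.17, 2.37, 1.41 and 2.09 in MI, far below AS-Cep85, and changed by 1.21 (SE 0.31, adjusted p = 0.0024) in MI and -0.08 (SE 0.30, adjusted p = 0.84) in IR. At other loci the neighbour moved the other way. Beside Adgre5, Ddx39 rose in both injuries while AS-Adgre5 fell, beside Sp110, Sp140 rose while AS-Sp110 fell in IR, and beside Adamts7, Tbc1d2b rose while AS-Adamts7 fell. Whether reads of a member and its neighbour come from 1 transcript was not tested.

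**Figure D5:**
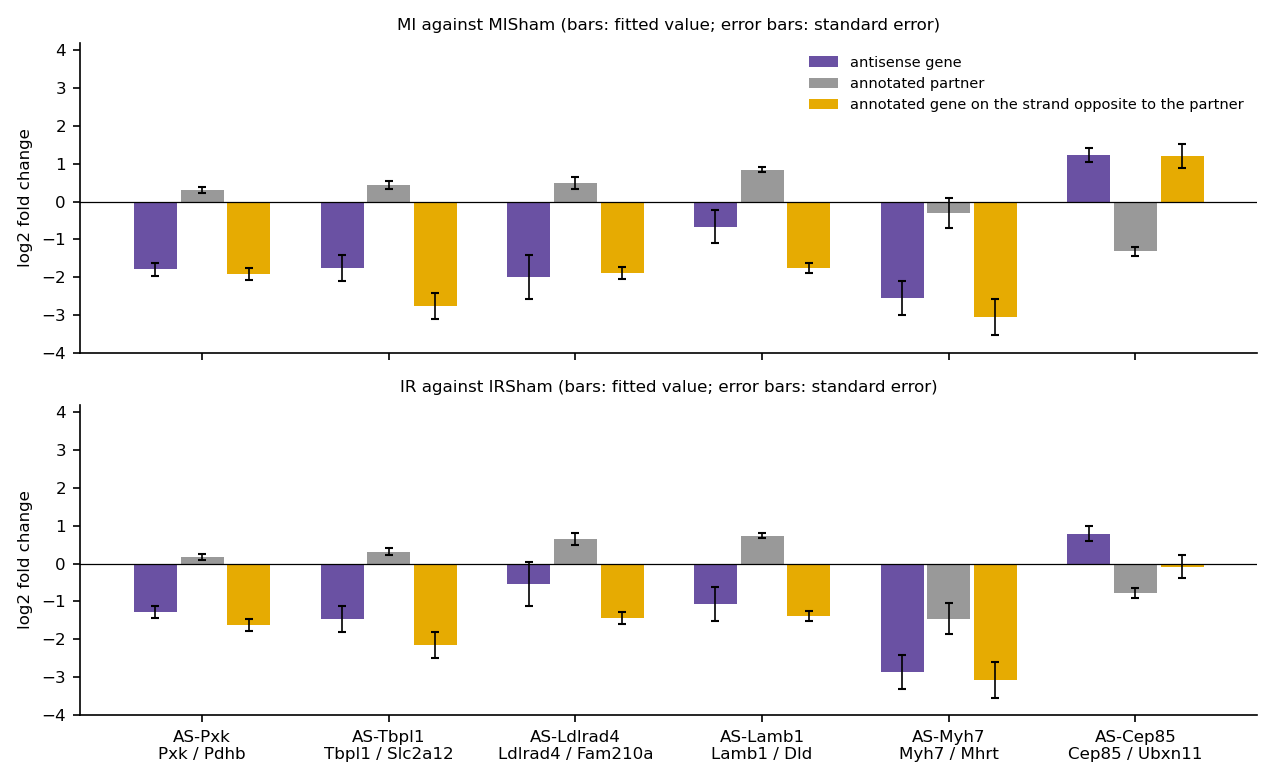
Log2 fold change with its standard error for the member (purple), its partner (grey) and the annotated gene on the strand opposite to the partner (yellow) at 6 loci, in MI against MISham (top) and IR against IRSham (bottom). At the first 4 loci the fitted values of the member and the neighbour are below 0 and that of the partner above it. Of these, AS-Lamb1 in MI and AS-Ldlrad4 and Pxk in IR were not called. At Cep85 the neighbour follows the member in MI alone.

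Of the 10 most abundant members, 5 have not been described above. AS-Gm29237 had 42.4 to 60.4 CPM in MISham and 13.7 to 17.9 in MI and fell in both injuries (-1.72 and -1.35), and its partner held 0 counts. AS-Strn3, across from a striatin of the STRIPAK phosphatase complex and above its partner at 1.72 times its level per kilobase, changed by -0.70 and -0.49, as Strn3 did (-0.84 and -0.60), though its IR call was lost by library size alone. AS-Psap, across from the lysosomal precursor prosaposin, rose by 0.67 and 0.73 beside 0.41 and 0.94 for Psap. AS-Pqlc1 changed by -0.89 and -0.94, while its partner was at -0.09 (adjusted p = 0.3) and -0.23. AS-AC161438.1 rose by 1.15 in MI and 0.85 in IR, the latter lost in 9 of 15 other settings, at 0.51 without IR library 3, and the MI value was 1.95 without MISham libraries 1 and 3.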

How the data were processed

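Gene counts were deposited as whole numbers. Per the submitters' processing notes, the tools were HISAT2 2.2.1, SAMtools 1.7, featureCounts 2.0.1 and kallisto 0.50.1, with build GRCm39; their settings, the annotation and the strand setting were not stated. The deposited transcript table gave TPM as the authors made it, and its 23070 unannotated transcripts carry read names that cannot be joined to the gene rows, so antisense genes have counts only.

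Genes were filtered with filterByExpr (minimum count 10, minimum total 15) and tested over all 16 libraries with edgeR 4.0.16 (TMM, quasi-likelihood, Benjamini-Hochberg over 19741 genes, threshold 0.05). Log2 ratios of antisense gene to partner (prior count 2) were tested with limma 3.58.1, and DESeq2 1.42.0 served as an alternative. Shares and detected members were compared by two-sided exact permutation tests in scipy 1.17.1. A fold change of a gene with few counts depends on the prior count.

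Replicate numbers were checked as a block: deviations of same-numbered libraries correlated at -0.056 to 0.045 between MI and MISham and -0.00037 to 0.051 between IR and IRSham, so the numbers were not taken to pair them.

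Symbols, classes, neighbours and their arrangement came from GENCODE M21 (GRCm38), whose coordinates are not printed since the counts use another build, and promoters from RefSeq (GRCm38.p6). The members and gene lists were chosen with earlier results of these data known. For each injury the named genes were the 10 largest rises and falls among called members reaching 0.5 CPM, the 6 largest ratio changes each way, the 6 largest opposite pairs, called members of the lists, and, over all libraries, the 10 most abundant members. Members at 0 counts, those above their partner, and the neighbour comparison were chosen after values were seen. Some members that enter the counts are not reported here by name. On counts simulated for MI against MISham over 19741 genes, 100 antisense and 100 annotated genes were changed 4-fold. The fit called 61 and 85 of them, and 8 of 18894 unchanged genes. In the data 64.9% of all genes were called in MI, a far larger share than was changed in the simulation. The adjustment therefore acts differently there, and these rates are not those of the data.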

Additional observations from a re-analysis of the deposited data

Results flagged for a closer look

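In 9 of 244 sets of 4 libraries (each named member reported here, in each group), 1 library lay far from the other 3 by Dixon's criterion, which chance meets in about 1 of 20 sets. Above the other 3 were AS-Myh7 in IRSham library 4 at 149.0 CPM, AS-Psap in MI library 2 at 27.74 CPM, AS-Adhfe1 in MI library 4 at 0.2064 CPM, AS-Kcnv2 in IR library 1 at 0.1763 CPM and AS-Zdhhc16 in MISham library 1 at 0.4011 CPM. Below the other 3 were AS-Lrrc15 in IRSham library 1 at 3.933 CPM, AS-Ssh1 in MI library 1 at 0.507 CPM, AS-Sbno2 in IR library 4 at 0.3289 CPM and AS-Rab1a in IRSham library 4 at 0.3269 CPM.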

How the results depend on the processing

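The number of members called stayed between 127 and 167 in MI and between 91 and 128 in IR under every alternative run. With the replicate block, 137 members were called in MI and 105 in IR, and the ratio in 28 and 16 pairs, and it called no member in the difference of responses or between the shams. The difference of responses called 1 member with no filter, 6 with DESeq2 and 2 without MISham and IR libraries 1 and 3, and leaving out 1 library gave 0 to 2, the 2 without IR library 2. MISham against IRSham called 5 by DESeq2 and 5 without MISham libraries 1 and 3, and leaving out 1 library gave 0 to 2. The ratio was called in 57 pairs in MI and 38 in IR with a prior count of 5, in 14 in IR with a prior count of 0.5 and in 14 with a mean count of at least 1 as the filter. With the partner's count as an edgeR offset it was called in 52 pairs in MI. With the partner in TPM it was called in 44 pairs in MI (11 higher, 33 lower) and 15 in IR (3 higher, 12 lower), and AS-Kcnv2 turned to -0.93 in MI. Leaving out 1 library gave 15 to 29 pairs in MI and 6 to 23 in IR. The members' share of counts, injured minus sham, was -0.00401 points in MI and -0.00239 in IR without mitochondrially encoded genes in the total, and leaving out 1 library gave -0.000203 to 0.00174 in MI and -3.4e-05 to 0.00338 in IR. For the 134 results on named members, 1781 of 2006 alternative values kept direction and side of the threshold, 224 missed the threshold in the same direction and 1 turned, and the cause was not tested. Low counts limit the members: their median standard error was over 4 times that of partners.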
